A study of Mus musculus with 18 samples.

Results

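The histone lysine demethylases and methyltransferases are the enzymes that erase and write methyl groups on the lysines of histone tails. They were followed here through the reprogramming of mouse fibroblasts into induced pluripotent stem cells (iPSC). The set was a list of 34 genes, each represented by the probe set with the highest mean among those that matched it by RefSeq accession. Of these, 32 had a probe set, out of 20233 genes measured: 18 demethylases and 14 methyltransferases. Setdb2 and Kmt2a matched no probe set and were not analysed here.

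Expression was measured on 18 Affymetrix arrays, 2 for each of 9 groups. Every group had a transgenic background with an Oct4-GFP reporter and the doxycycline-responsive transactivator M2rtTA at Rosa26. Doxycycline induces the OSKM factors (Oct4, Sox2, Klf4, c-Myc), so the arrays may read transgene as well as endogenous RNA of those genes. Day 0 was the starting fibroblasts at passage 4, grown in a feeder-cell medium and taken from E13.5 embryos that consisted of iPSC progeny after tetraploid complementation. On days 1, 3, 5, 7, 11 and 15 the cells were in stem cell medium to which 1 µg/ml of doxycycline and 50 µg/ml of vitamin C had been added. Day 18 was the cells left 3 days after both additives were withdrawn. The iPSC were an established line in stem cell medium supplemented with 2i, that is, Gsk3 and Mek inhibitors, and whether feeder cells were present is not stated for these arrays. Each comparison with day 0 therefore holds the change of medium and, up to day 15, vitamin C together with the factors. The labels leave it unstated whether the arrays of a group came from separate cultures, so p-values measure the spread between these arrays, which may be technical.

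Methylation of histone H3 at lysine 4 (H3K4) and lysine 36 (H3K36) is found at active genes, that of lysine 79 (H3K79) in transcribed bodies, and that of lysine 9 (H3K9) and lysine 27 (H3K27) at silent ones. Most demethylases belong to the JmjC family, dioxygenases that need iron and 2-oxoglutarate and whose activity vitamin C supports, while Kdm1a and Kdm1b are amine oxidases that use flavin. Most lysine methyltransferases carry a SET domain, with the H3K79 enzyme Dot1l as the exception among those measured. In fibroblasts H3K9 methylation is known as a barrier to reprogramming, and Dot1l inhibition as an aid to it.

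Values are log2 expression levels, and a difference of 1 is 2-fold. A gene was called, and is said to have risen or fallen, where limma's p, adjusted over all genes by Benjamini-Hochberg, was under 0.05 and the size of the difference reached 1 on the log2 scale. Within groups the arrays had a correlation of 0.997 to 0.998, except for day 18 with 0.993. More than 2-fold apart on the day 18 pair were 264 genes, where the pairs of the other groups had 5 to 16. Among the members, the highest SD on day 18 was 0.17, for Phf2, and in the other groups it was 0.10 to 0.23. The median of all genes stood 0.11 above day 0 on day 3 and 0.13 on day 5, and by 0.08 or less on the other days. The 9 pluripotent cell markers had a mean level of 11.02 in iPSC and 4.8 on day 0, and the 9 fibroblast markers had 10.99 (day 0), 6.38 (day 15), 7.96 (day 18) and 8.89 (iPSC). All 9 fibroblast markers were above background in iPSC, and their part in the results on iPSC was not tested. In bulk RNA, fewer cells of a type and less RNA per cell cannot be told apart.

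The enzymes were nearly all expressed throughout, and most moved by small amounts. Measured against the 95th percentile of 1075 olfactory receptor genes (log2 5.28), which are mostly silent outside the nose, 31 members stood above background in every group. Kdm4d, a testis-enriched H3K9 demethylase, was under it in all 9 groups, with levels of 3.85 to 4.60 over the 18 arrays. The group means differed by limma's F test for 31 of 32 members, the exception being Kdm4d (adjusted p = 0.0748), against 78.8% of all genes. The range between the lowest and highest group mean was 0.31 to 2.40 over the members, with a median of 0.88, against a median of 1.09 for the 15433 genes above background in at least 1 group. A range of at least 1 was reached by 13 members, and by 54.6% of those 15433 genes. Some comparison with day 0 called 11 of the 32 members, against 36.3% of all genes and 46.7% of those above background. The shares of all genes given below include 4800 genes under background in all groups. In every comparison made, the share called was higher over the genes above background. In none of the comparisons made were 20 members called. The share of all genes by that wider rule was not counted, so whether 20 is many or few cannot be said.

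**Figure D1:**
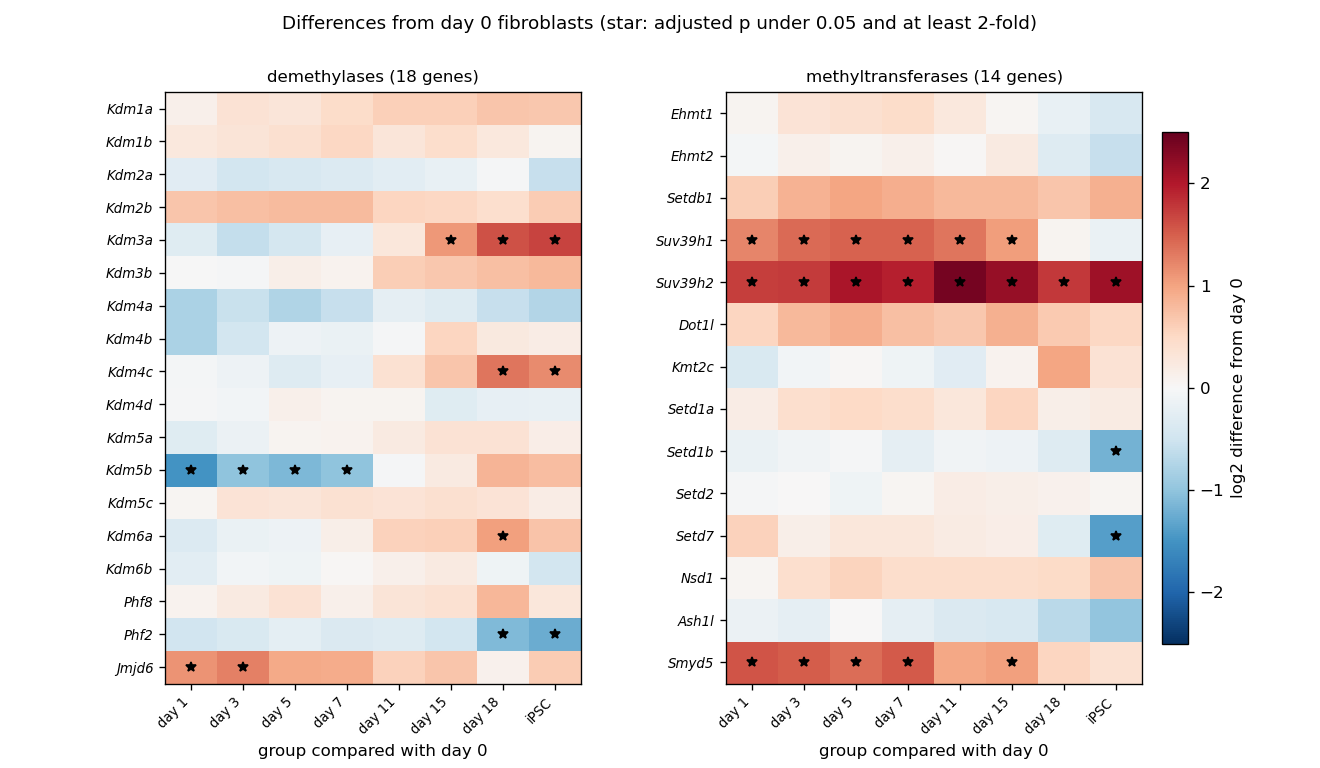
Group means of the 32 members as log2 differences from day 0, one line per gene with demethylases and methyltransferases shown apart, and one column per group in time order; red is higher, blue is lower and a star marks a called difference. Suv39h2 is high from day 1 through iPSC, and Suv39h1 and Smyd5 are high from day 1 to day 15. Kdm3a, Kdm4c and Kdm5b are high late, and Setd7, Setd1b and Phf2 are lowest in iPSC.

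Comparison of day 1 with day 0 shows what had changed 1 day after induction. The members that rose were mainly methyltransferases: Suv39h2, Suv39h1, Smyd5 and the dioxygenase Jmjd6 rose, and the H3K4 demethylase Kdm5b fell. These were 5 of 32 members (15.6%), against 14.2% of all genes called in that comparison (7.62% higher and 6.54% lower). Of the genes above background in at least 1 group, 18.3% were called. Counted by adjusted p alone, 6 methyltransferases stood higher and 1 lower, whereas 3 demethylases stood higher and 9 lower on day 1 than on day 0. The same count gave 27.8% of all genes higher and 22.2% lower, and 35.4% and 27% of those above background. The median difference was 0.12 for methyltransferases and -0.16 for demethylases, against 0.01 for all genes.

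Suv39h2 and Suv39h1 are paralogous enzymes that trimethylate H3K9 in constitutive heterochromatin. Suv39h2 had 7.59 and 7.60 on day 1, against 6.02 and 5.71 on day 0. Both day 1 arrays were well above both day 0 arrays, and the difference of 1.73 ± 0.11 (SE, n = 2 each) had an adjusted p of 1.41e-08. Suv39h1 had 9.28 and 9.38 on day 1, against 8.12 and 8.07 on day 0. The groups did not overlap, and it rose by 1.23 ± 0.07 (limma, adjusted p = 4.45e-09). Of the other H3K9 writers, Setdb1, which acts with Trim28 at retroelements, had 9.39 and 9.40 on day 1, against 8.77 and 8.79 on day 0. Its arrays were also apart, with a difference of 0.62 ± 0.07 that stayed under 2-fold (limma, adjusted p = 1.99e-06). The euchromatic enzyme Ehmt2 (G9a) had 8.97 and 8.94 on day 1, against 8.97 and 9.0 on day 0, and its partner Ehmt1 differed by 0.06 ± 0.10; neither passed the test (adjusted p = 0.71 and 0.703).

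Smyd5, described in mouse embryonic stem cells as a writer of H4K20 methylation, had 10.13 and 10.20 on day 1, against 8.58 and 8.59 on day 0. It rose by 1.58 ± 0.08 (limma, adjusted p = 1.11e-09), with no overlap. Jmjd6, a JmjC protein best known for hydroxylating lysines and reported to demethylate arginines, had 9.85 on both day 1 arrays, against 8.73 on both day 0 arrays. It rose by 1.12 ± 0.07 (limma, adjusted p = 7.47e-09), and under another quantile normalization it was at the limit and not called. Kdm5b, which removes H3K4 methylation, had 8.69 and 8.67 on day 1, against 10.21 and 10.12 on day 0, the only called fall. It fell by 1.49 on the log2 scale, with an SE of 0.09 (limma, adjusted p = 6.96e-09).

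Of the 8 H3K9 demethylases, 0 stood higher and 4 lower on day 1 by adjusted p alone, and of the 5 H3K9 methyltransferases 3 stood higher and 0 lower, against 27.8% of all genes higher and 22.2% lower. The difference between these classes was not tested. The 8 demethylases include Kdm4d, which was under background in all groups. Kdm4b, one of these erasers, had 7.31 and 7.23 on day 1, against 8.10 and 8.05 on day 0. Its arrays were apart, with a difference of -0.80 ± 0.08 that stayed under 2-fold (limma, adjusted p = 5.21e-07). Kdm4a differed by -0.80 ± 0.06, Phf2 by -0.47 ± 0.08 and Kdm3a by -0.31 ± 0.07, whereas Kdm4c (-0.05), Kdm3b (-0.01) and Phf8 (0.09) did not pass the test. The 13 DNA replication genes measured were all called higher on day 1 than on day 0, with a median difference of 1.58, and their part in these results was not tested.

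**Figure D2:**
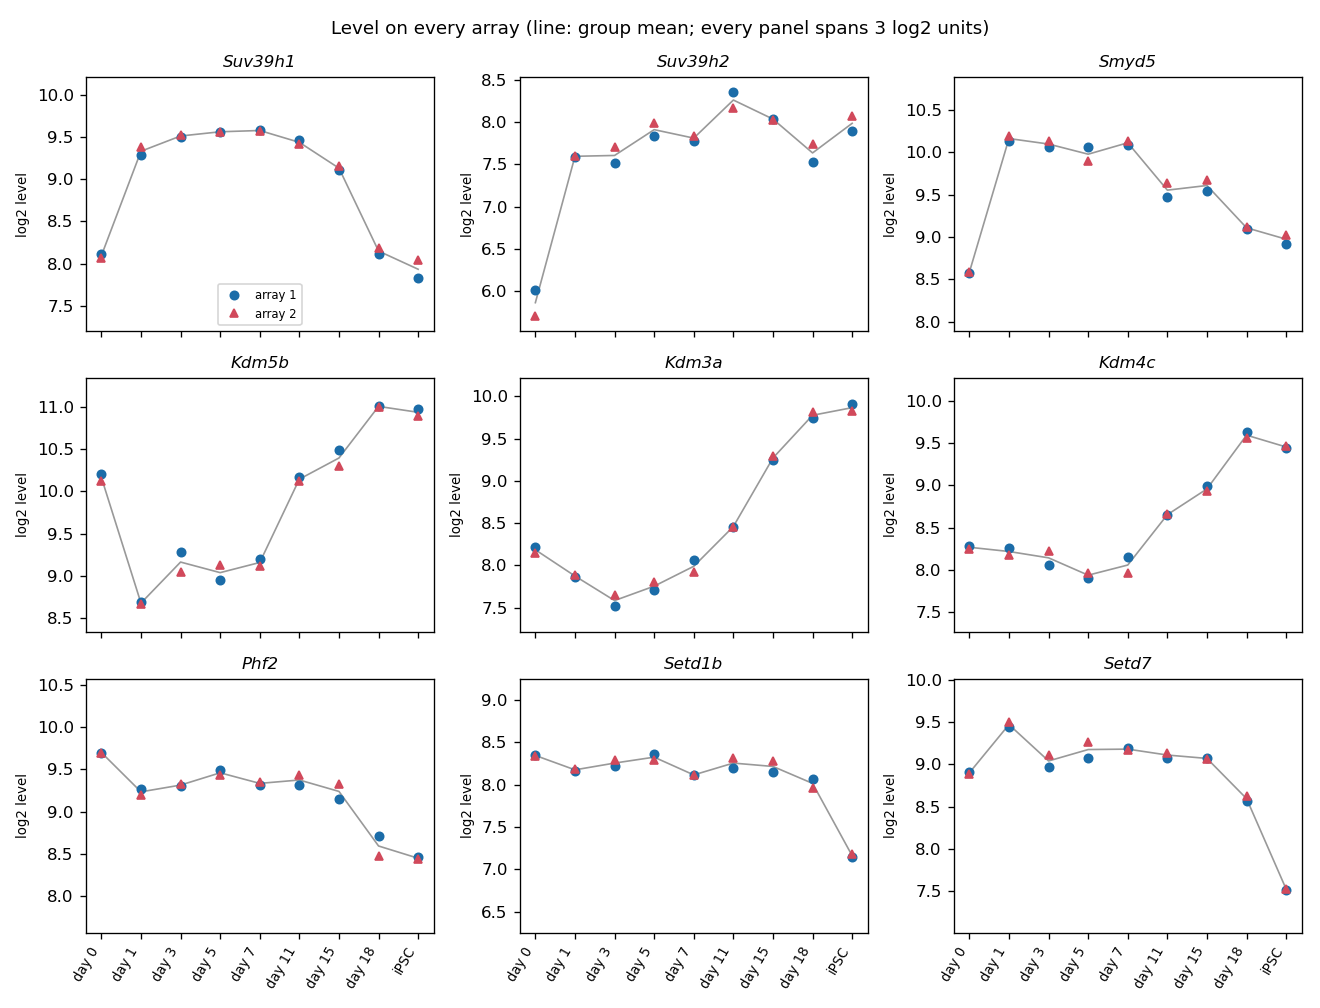
Log2 level on each of the 18 arrays for the members that the results turn on, one panel per gene, with groups in time order on the horizontal axis; each point is an array and the line joins the group means. Suv39h1 stands at 9.58 and 9.57 on day 7 and at 7.83 and 8.04 in iPSC, while Kdm3a and Kdm5b stand highest on day 18 and in iPSC.

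The upstream regions of 4 members that moved together in pairs are shown, since Suv39h1 and Smyd5 had similar courses over the 9 group means (Pearson r = 0.91) and so had Kdm3a and Kdm4c (r = 0.97). These pairs were picked from all pairs of members. Other pairs also reached an r of at least 0.91, such as Jmjd6 and Smyd5 (0.91), Setdb1 and Suv39h2 (0.93) and Kdm3b and Kdm6a (0.94). Each point of these correlations is the mean of a group, and both genes of a pair were read on the same arrays. Sequences are RefSeq's on GRCm38.p6, from 250 bases before to 50 bases after a transcript start, 5′ to 3′ on the gene's strand, and capitals mark the E-box CACGTG, the CCAAT box, the octamer ATGCAAAT and an E2F site (TTTGGCGC, TTTCGCGC, TTTCCCGC or TTTGCCGC), searched on both strands.
Suv39h1, start 2 of the table, chrX:8074312-8074611, minus strand: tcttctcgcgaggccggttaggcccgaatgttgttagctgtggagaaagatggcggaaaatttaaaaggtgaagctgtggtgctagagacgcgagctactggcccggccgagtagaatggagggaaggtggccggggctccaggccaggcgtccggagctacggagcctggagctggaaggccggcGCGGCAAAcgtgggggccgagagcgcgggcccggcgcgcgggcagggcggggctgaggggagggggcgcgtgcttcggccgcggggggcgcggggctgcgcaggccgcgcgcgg
Smyd5, chr6:85431726-85432025, plus strand: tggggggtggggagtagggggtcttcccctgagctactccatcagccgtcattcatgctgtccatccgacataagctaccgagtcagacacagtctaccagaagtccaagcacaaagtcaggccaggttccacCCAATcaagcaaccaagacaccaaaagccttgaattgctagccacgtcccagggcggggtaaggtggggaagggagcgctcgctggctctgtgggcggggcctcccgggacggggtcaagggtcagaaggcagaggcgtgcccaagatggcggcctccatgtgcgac
Kdm3a, start 1, chr6:71632868-71633167, minus strand: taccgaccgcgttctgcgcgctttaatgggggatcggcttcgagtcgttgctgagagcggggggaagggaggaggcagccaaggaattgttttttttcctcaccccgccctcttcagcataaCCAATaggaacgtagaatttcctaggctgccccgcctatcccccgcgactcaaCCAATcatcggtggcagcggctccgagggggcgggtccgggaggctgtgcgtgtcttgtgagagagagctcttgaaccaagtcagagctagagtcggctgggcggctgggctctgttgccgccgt
Kdm4c, start 2, chr4:74251629-74251928, plus strand: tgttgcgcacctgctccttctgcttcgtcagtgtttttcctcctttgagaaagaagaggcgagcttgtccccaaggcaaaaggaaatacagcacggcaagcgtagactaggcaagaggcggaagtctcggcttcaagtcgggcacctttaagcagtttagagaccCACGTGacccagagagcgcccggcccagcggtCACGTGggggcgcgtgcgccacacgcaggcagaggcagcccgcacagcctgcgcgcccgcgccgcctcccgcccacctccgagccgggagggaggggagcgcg

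Counted from the first transcribed base, the Suv39h1 window held an E2F site at -64 and the Smyd5 window a CCAAT box at -117. The other Suv39h1 start of the table had CCAAT boxes at -120 and -74. The Kdm3a window held CCAAT boxes at -128 and -75, and the Kdm4c window E-boxes at -85 and -53. Starts 2 and 3 of Kdm3a and start 1 of Kdm4c in the table held none of the marked motifs. Where a gene had several starts only 1 is printed, and which of them these cells used was not tested. Over the 24 members with a promoter in the table, 11 held a CCAAT box (45.8%, against 41.1% of the 27025 genes with a promoter), 3 an E-box (12.5%, against 8.1%), 1 an E2F site (4.2%, against 2.6%) and 0 the octamer (against 2.0%). The letters CCACCC were in 8 (33.3%, against 34%) and CTTTGTT in 3 (12.5%, against 6.7%). Matches are descriptions of letters, not of bound sites. Median GC content was 64.2% over the members' promoters and 52.7% over all.

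From day 1 to day 15, with doxycycline and vitamin C present throughout, the 3 members called were demethylases. Kdm5b, Kdm3a and Kdm4b rose and 0 members fell, which made 3 of 32 (9.38%) against 10.5% of all genes called, 5.66% being higher. By adjusted p alone, 12 of 18 demethylases stood higher on day 15 than on day 1 and 2 lower (Kdm2b and Jmjd6), and 7 of 14 methyltransferases stood higher and 4 lower. Over all genes the shares were 22.4% and 23.7%, and over those above background 28.1% and 29.9%. The median difference was 0.47 for demethylases, 0.18 for methyltransferases and 0.01 for all genes. Of the 8 H3K9 demethylases, Kdm4d under background among them, 6 stood higher and 0 lower. The day 1 arrays are shared with day 1 against day 0, where 9 of 18 demethylases stood lower by adjusted p alone. A low level on day 1 thus enters both comparisons. From day 0 to day 15 the group mean went from 10.17 to 10.39 for Kdm5b, from 8.08 to 8.61 for Kdm4b and from 8.18 to 9.27 for Kdm3a. Of 7 keratinocyte markers 6 were called higher on day 15 than on day 1 (median 3.75), and of 7 trophoblast markers 5 (median 1.54). Of 9 fibroblast markers 6 were called lower and 0 higher (median -3.14). Their part in these results was not tested.

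Kdm3a, an eraser of mono- and dimethylated H3K9 known in mouse embryonic stem cells to depend on Oct4, had 9.25 and 9.29 on day 15, against 7.86 and 7.89 on day 1. It rose by 1.40 ± 0.07 (limma, adjusted p = 1.93e-09). The course had a dip and a late climb, with 7.52 and 7.65 on day 3, 8.46 on both day 11 arrays and 9.74 and 9.81 on day 18. Kdm4b had 8.60 and 8.62 on day 15, against 7.31 and 7.23 on day 1, with no overlap and a difference of 1.33 ± 0.08 (limma, adjusted p = 4.88e-09). Kdm5b had 10.49 and 10.30 on day 15, against 8.69 and 8.67 on day 1. It rose by 1.71 ± 0.09 (limma, adjusted p = 2.61e-09), and most of that lay between day 7 (9.20 and 9.12) and day 11 (10.17 and 10.12). Over those days its difference was 0.99 ± 0.09, just under the limit (limma, adjusted p = 2.96e-06). Without day 7 replicate 1 it was 1.03 and without day 11 replicate 2 it was 1.01, so that Kdm5b would be called.

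Between neighbouring sampled days from day 1 to day 15 no member was called by limma. The counts were 0 of 32 for day 3 against day 1 (18 at an unadjusted p under 0.05, with 3.03% of all genes called), day 5 against day 3 (10, with 1.15%), day 7 against day 5 (9, with 1.02%), day 11 against day 7 (14, with 3.05%) and day 15 against day 11 (10, with 1.91%). On day 11 against day 7 Kdm4c stood 0.60 higher and Smyd5 0.56 lower (a difference of -0.56). On day 15 against day 11 Kdm3a stood 0.81 higher and Kdm4b 0.55 higher. These steps were compared after the data had been seen.

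Each later day was also compared with day 0. On day 3, 5 members were called, 4 of them higher (17.6% of all genes were called). Day 5 had 4 members, 3 of them higher (19.2%), and day 7 also had 4, 3 of them higher (20%). The higher members were Suv39h1, Suv39h2 and Smyd5 on all of these days, with Jmjd6 on day 3, and the lower one was Kdm5b. The Kdm5b call did not hold without day 0 replicate 1 (-0.96 on day 3 and -0.97 on day 7), on day 3 without day 3 replicate 2 (-0.88), on day 7 without day 7 replicate 2 (-0.97), or under median centring (-0.93 on day 3 and -0.96 on day 7). Day 11 had Suv39h1 and Suv39h2, both higher (19.5%), day 15 had 4, all of them higher (18.9%), and day 18 had 5, 4 of them higher (17.5%). The median over methyltransferases was 0.12 (day 1), 0.38 (day 3), 0.45 (day 5), 0.44 (day 7), 0.28 (day 11), 0.33 (day 15) and 0.13 (day 18). That of demethylases was -0.16, -0.10, -0.02, 0.07, 0.29, 0.42 and 0.35 on the same days. The methyltransferase median was thus furthest above day 0 on days 5 and 7 and the demethylase median on day 15, when the all-gene median was 0.13, 0.08 and 0.05 on those days. These comparisons share the day 0 arrays.

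**Figure D3:**
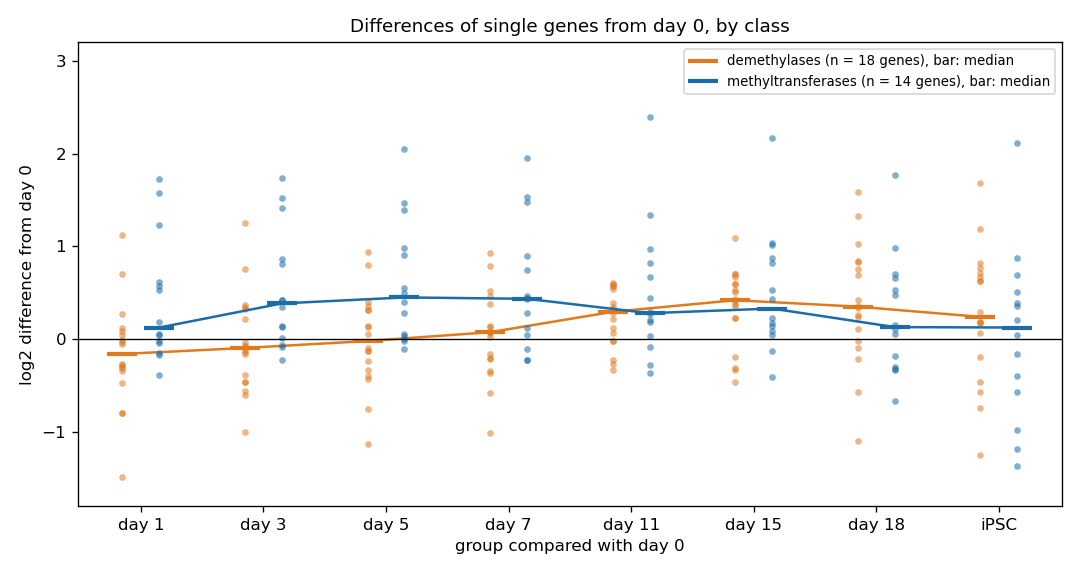
Log2 difference from day 0 of each gene (points) by group in time order, for the 18 demethylases (orange) and the 14 methyltransferases (blue), with bars at the class medians joined by lines. The methyltransferase median is highest on day 5 (0.45) and the demethylase median on day 15 (0.42), and single genes spread widely around both.

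On day 15 the members above day 0 were Suv39h2 (8.04 and 8.03 on day 15), Kdm3a, Suv39h1 (9.11 and 9.15) and Smyd5 (9.54 and 9.68). Suv39h2 rose by 2.17 ± 0.11, Kdm3a by 1.09 ± 0.07, Suv39h1 by 1.04 ± 0.07 and Smyd5 by 1.02 ± 0.08. The last pair lay close to the limit, and both lost the call under another quantile normalization (0.99 for Suv39h1 and 0.97 for Smyd5).

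A member counted as transient where some day from 1 to 15 was called above both day 0 and iPSC, or below both. There were 3 such members, against 11.5% of all genes. Suv39h1 and Smyd5 were transiently higher, against 6.76% of all genes, and Kdm5b transiently lower, against 4.76%. The highest group mean of Suv39h1 was that of day 7, at 9.58 and 9.57, against 7.83 and 8.04 in iPSC and 8.12 and 8.07 on day 0. Smyd5 stood at 10.09 and 10.14 on day 7, against 8.92 and 9.03 in iPSC. Suv39h2 had a different course from its paralog, with r = 0.46 between them over the 9 group means. It was highest on day 11, at 8.35 and 8.17, and had 7.90 and 8.07 in iPSC.

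Day 18 against day 15 holds the withdrawal of doxycycline and vitamin C. limma called 0 of 32 members (23 at an unadjusted p under 0.05), against 8.74% of all genes. By adjusted p alone, 1 methyltransferase stood higher on day 18 and 9 lower, and 6 demethylases higher and 5 lower, against 19.7% of all genes higher and 27% lower. Keratinocyte markers were called lower on day 18 for 6 of 7 (median -3.19), and fibroblast markers higher for 6 of 9 (median 1.91). The mean level of the fibroblast markers differed between the day 18 arrays, at 7.49 and 8.44. The part of both marker sets in the members' values was not tested. The methyltransferase above day 15 was Kmt2c, a writer of H3K4 monomethylation at enhancers, at 9.58 and 9.73 on day 18 and 8.81 and 8.73 on day 15. Its difference was 0.89 ± 0.08 (limma, adjusted p = 6.20e-07), and the day 18 arrays were above those of every other group. Suv39h1 had 8.11 and 8.19 on day 18, against 9.11 and 9.15 on day 15, so its day 18 values overlapped those of day 0. Its difference of -0.98 ± 0.07 fell just short of the limit (limma, adjusted p = 9.87e-08) and was -1.02 without day 18 replicate 2, which would be called. Suv39h2 differed by -0.40 ± 0.11, Phf2, an H3K9 demethylase of the Phf8 family, by -0.65 ± 0.08, and Kdm4c by 0.63 ± 0.08.

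Against day 0, the day 18 cells had higher Suv39h2 (1.77 ± 0.11), Kdm3a (1.59 ± 0.07), Kdm4c (1.33 ± 0.08) and Kdm6a (1.03 ± 0.07), and lower Phf2 (-1.10 ± 0.08). Without day 18 replicate 2, 3 members were called, since Kdm6a was at 0.96 and Phf2 at -0.99. Suv39h1 was at 0.06 ± 0.07 and overlapped day 0 (adjusted p = 0.523).

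The established iPSC differed from day 15 in members that fell: Setd7, Suv39h1 and Setd1b, 3 of 32 (9.38%) against 11% of all genes called, 5.48% being lower. By adjusted p alone, 2 methyltransferases stood higher in iPSC and 9 lower, and 4 demethylases higher and 7 lower, against 22.5% of all genes higher and 24.1% lower. The medians were -0.41 for methyltransferases, -0.08 for demethylases and -0.02 for all genes. In the same comparison 6 of 7 keratinocyte markers were called lower (median -3.91), and of 7 trophoblast markers 4 were called lower and 1 higher (median -1.56). Of 9 fibroblast markers 7 were called higher and 0 lower (median 2.59). The mean level of the keratinocyte markers was 5.28 and 5.30 on the iPSC arrays, with 3 of 7 not above background, against 8.70 and 8.85 on the day 15 arrays. That of the trophoblast markers was 6.23 and 6.30 in iPSC, with 2 of 7 not above background, against 8.07 and 8.14 on day 15. The part of these markers in the members' values was not tested. Setd7, which monomethylates H3K4 and several proteins other than histones, had 7.52 and 7.53 in iPSC, against 9.08 and 9.06 on day 15. It fell by 1.54 on the log2 scale, with an SE of 0.07 (limma, adjusted p = 7.20e-10). Suv39h1 had 7.83 and 8.04 in iPSC, against 9.11 and 9.15 on day 15, a difference of -1.19 ± 0.07 (limma, adjusted p = 9.21e-09). Setd1b, the catalytic subunit of a COMPASS complex that writes H3K4 trimethylation, had 7.14 and 7.18 in iPSC, against 8.15 and 8.28 on day 15. In all 3 the groups were apart. The Setd1b difference was -1.06 ± 0.07 (limma, adjusted p = 1.94e-08), and -0.99 without day 15 replicate 2, under the limit.

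Members that did not reach the limit in iPSC against day 15 included Ehmt2 (-0.80 ± 0.07), Phf2 (-0.79 ± 0.08), Kdm6b (-0.68 ± 0.06) and Smyd5 (-0.63 ± 0.08). Suv39h2 differed by -0.05 ± 0.11 and overlapped. Against day 18, 1 member was called, with 4.41% of all genes (2.84% lower): Setd7, at 7.52 and 7.53 in iPSC and 8.57 and 8.62 on day 18, a difference of -1.07 ± 0.07 (limma, adjusted p = 9.23e-08). Setd1b stood at -0.85 ± 0.07, Kmt2c at -0.63 ± 0.08, Kdm2a at -0.55 ± 0.07 and Jmjd6 at 0.51 ± 0.07 in that comparison.

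Over the whole course, iPSC against day 0, 3 members rose (Suv39h2, Kdm3a and Kdm4c) and 3 fell (Setd7, Phf2 and Setd1b). These were 18.8% of the members, against 19.9% of all genes called (10.1% higher and 9.79% lower) and 25.7% of those above background. Suv39h2 had 7.90 and 8.07 in iPSC, against 6.02 and 5.71 on day 0, a difference of 2.12 ± 0.11 (limma, adjusted p = 1.23e-09). Kdm3a had 9.91 and 9.82 in iPSC, against 8.22 and 8.15 on day 0, a difference of 1.68 ± 0.07 (limma, adjusted p = 1.36e-10). These arrays did not overlap in either gene. Kdm4c, an eraser of trimethylated H3K9 and, like Kdm3a, known in mouse embryonic stem cells to depend on Oct4, had 9.44 and 9.47 in iPSC, against 8.29 and 8.25 on day 0. It rose by 1.19 ± 0.08 (limma, adjusted p = 1.07e-08), while on days 1 to 7 its arrays lay between 7.91 and 8.26, at or under day 0.

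The probe set of Pou5f1, the gene of Oct4, was at 10.30 ± 0.03 on day 1 and 12.32 ± 0.03 on day 7 (SD, n = 2), with transgene RNA possibly included, and Nanog was at 4.97 ± 0.47 on day 1, 9.70 ± 0.05 on day 7 and 12.48 ± 0.07 in iPSC. The group means of Kdm3a and Kdm4c were not above day 0 on days 1 to 7, when the Pou5f1 probe set was already high. Their relation to either gene was not tested.

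Among the members that fell, Setd7 had 7.52 and 7.53 in iPSC, against 8.91 and 8.89 on day 0, and differed by -1.37 ± 0.07 (limma, adjusted p = 9.53e-10). Phf2 had 8.46 and 8.44 in iPSC, against 9.70 on both day 0 arrays, and differed by -1.25 ± 0.08 (limma, adjusted p = 1.09e-08). Setd1b had 7.14 and 7.18 in iPSC, against 8.35 and 8.34 on day 0, and differed by -1.19 ± 0.07 (limma, adjusted p = 2.61e-09). In each the iPSC arrays were below the arrays of every sampled day, and the nearest were those of Phf2 on day 18, at 8.71 and 8.48. Ash1l, an H3K36 methyltransferase, was just short of the limit at -0.98 ± 0.08 and not called. It would be called under another quantile normalization (-1.03), under median centring (-1.04) and without day 0 replicate 1 (-1.04). By adjusted p alone, 11 demethylases stood higher in iPSC and 4 lower, and 7 methyltransferases higher and 5 lower, against 30.2% of all genes higher and 27.6% lower.

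**Figure D4:**
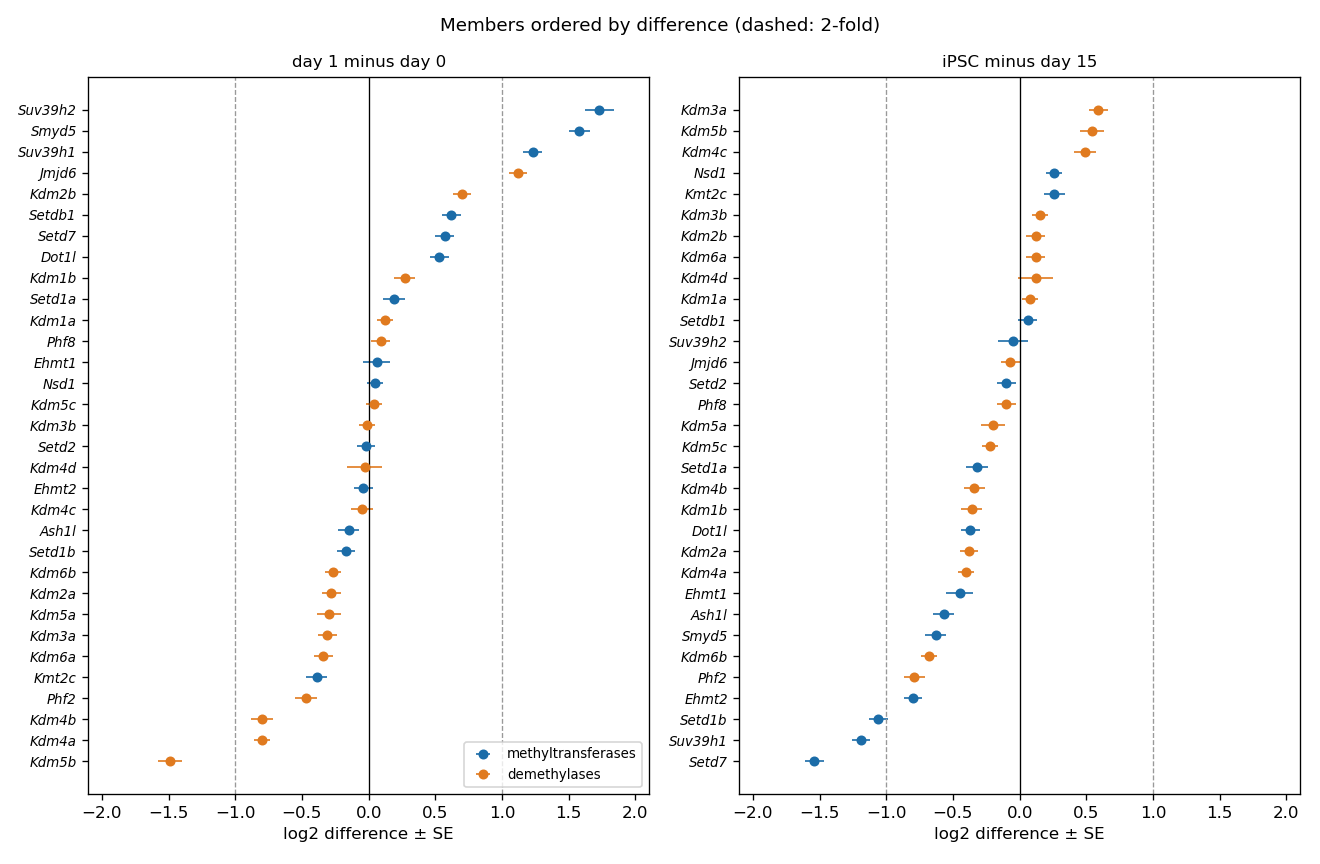
Log2 difference ± SE of each of the 32 members in day 1 minus day 0 (left) and iPSC minus day 15 (right), ordered by size within each panel, with methyltransferases in blue, demethylases in orange and dashed lines at 2-fold. Suv39h2, Smyd5, Suv39h1 and Jmjd6 lie past the upper line on the left and Kdm5b past the lower one, and on the right Setd7, Suv39h1 and Setd1b lie past the lower line, with Setd7 at -1.54.

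Most of the remaining members stayed within 2-fold. Of the flavin enzymes, Kdm1a (LSD1), which removes H3K4 methylation and is needed in stem cells for differentiation, stood at 9.82 and 9.80 on day 0, 9.96 and 9.90 on day 1 and 10.46 and 10.50 in iPSC. The iPSC arrays were above both, by 0.67 ± 0.06 over day 0 (limma, adjusted p = 1.05e-07), and the day 1 difference of 0.12 did not pass the test. Kdm1b was 7.06 to 7.64 over all arrays. Of the H3K4 erasers, Kdm5c on the X chromosome stood at 9.35 and 9.26 in iPSC and 9.14 and 9.09 on day 0, a difference of 0.19 ± 0.06, and Kdm5a differed by 0.17 ± 0.09 (limma, adjusted p = 0.118).

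Kdm2a and Kdm2b remove H3K36 methylation and bind CpG-rich DNA, and Kdm2b is also known to recruit a Polycomb complex. Kdm2a had 8.99 and 9.09 in iPSC, against 9.57 and 9.65 on day 0, a difference of -0.57 ± 0.07 (limma, adjusted p = 3.11e-06). Kdm2b had 8.37 and 8.35 in iPSC, against 7.72 and 7.73 on day 0, a difference of 0.63 ± 0.07 (limma, adjusted p = 3.28e-06), and it was at 8.39 and 8.46 on day 1. The paralogs were apart in opposite directions, both under 2-fold. The other Kdm2b probe set correlated with this one over the arrays at r = 0.829.

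The H3K27 erasers Kdm6a (UTX) and Kdm6b (JMJD3) also differed in direction. Kdm6a, on the X chromosome, had 8.07 and 8.06 on day 0, 9.03 and 9.16 on day 18 and 8.72 and 8.84 in iPSC, with a difference of 0.71 ± 0.07 in iPSC (limma, adjusted p = 1.07e-06). Kdm6b had 8.95 and 8.93 in iPSC, against 9.42 and 9.37 on day 0, a difference of -0.46 ± 0.06 (limma, adjusted p = 1.58e-05). Its highest arrays were those of day 15, at 9.58 and 9.66.

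Of the other H3K9 enzymes, Setdb1 had 9.63 and 9.69 in iPSC, against 8.77 and 8.79 on day 0, a difference of 0.88 ± 0.07 (limma, adjusted p = 3.87e-08). Ehmt2 had 8.48 and 8.36 in iPSC, against 8.97 and 9.0 on day 0, and the difference was -0.57 ± 0.07 (limma, adjusted p = 2.91e-06), with the arrays apart. Ehmt1 differed by -0.40 ± 0.10, Kdm3b by 0.82 ± 0.06, Kdm4a by -0.74 ± 0.06, Kdm4b by 0.19 ± 0.08 and Phf8 by 0.29 ± 0.07. Dot1l, the H3K79 writer, had 9.13 and 9.07 on day 0, 9.60 and 9.65 on day 1 and 9.62 and 9.60 in iPSC. Its iPSC difference was 0.51 ± 0.07 (limma, adjusted p = 1.95e-05), and its highest group mean was that of day 5, with arrays at 10.07 and 9.94, which overlapped those of day 15, at 9.94 and 10.03, and of day 3, at 9.85 and 9.95.

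Among writers of H3K4 and H3K36, Kmt2c differed by 0.36 ± 0.08 in iPSC against day 0, Setd1a by 0.21 ± 0.08, Nsd1 by 0.69 ± 0.06 and Setd2 by 0.04 ± 0.07. Setd2, which writes H3K36 trimethylation along transcribed genes, had the smallest movement of the members above background, and its group means ranged over 0.31.

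Kdm5c, Kdm6a, Phf8 and Suv39h1 lie on the X chromosome, and sex-linked transcripts differed between groups. Xist, the RNA of the inactive X chromosome, had levels of 5.01 (day 0), 7.42 (day 15), 6.45 (day 18) and 8.53 (iPSC). The Y-linked Eif2s3y had 4.24 (day 0), 3.99 (day 15), 8.53 (day 18) and 6.25 (iPSC). Uty, the Y-linked relative of Kdm6a, was at 8.34 in iPSC and 5.80 on day 0, and Kdm5d, that of Kdm5c, at 5.43 in iPSC and 4.79 on day 0. Both also moved up and down within the course. Uty had 5.85 (day 3), 8.27 (day 5), 5.29 (day 7) and 8.95 (day 18). Kdm5d had 5.08, 6.79, 4.74 and 7.63 on those days, and was under background on days 0, 3 and 7. The part of these sex-linked transcripts in the values of the X-linked members was not tested.

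The genes that work with these enzymes were counted in lists. Of 13 subunits of COMPASS and MLL complexes, which hold the H3K4 writers, 6 were called higher in iPSC than on day 0 and 0 lower, against 10.1% of all genes higher and 9.79% lower. The median was 0.53 against 0.01 for all genes. Dpy30 rose by 2.02, Ash2l by 1.88, Wdr5 by 1.83, Psip1 by 1.33 and Rbbp5 by 1.29, and Cxxc1 differed by -0.55. Of the catalytic subunits Setd1b fell by 1.19, while Kmt2b (0.63), Kmt2c (0.36) and Setd1a (0.21) stood higher and Kmt2d (-0.18) lower, each by less than 2-fold. Of 13 measured readers and partners of H3K9 methylation, 6 were called higher and 0 lower, against the same shares of all genes, 10.1% and 9.79%. By adjusted p alone 7 stood higher and 3 lower (Pphln1, Zfp644 and Cdyl). Atf7ip2 rose most, and was at 7.39 in iPSC and at 5.00, under background, on day 0. Others that rose were Uhrf1 (1.86), Cbx1 (1.08), Setdb1's partner Trim28 (1.01), and the HUSH subunits Mphosph8 (1.81) and Tasor (1.61). The remaining HUSH subunit, Pphln1, stood at -0.62 in iPSC against day 0, and at -1.13, called lower, on day 18 against day 15.

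Of 15 other JmjC genes, 4 were called higher in iPSC than on day 0 and 0 lower, where all genes had 10.1% and 9.79%. The 4 included the Y-linked Uty (2.54), Jarid2 (2.41), a catalytically inactive partner of Polycomb complex PRC2, and Hspbap1 (2.11). Of 23 other lysine methyltransferases, 5 were called higher and 1 lower, against the same shares. Smyd3 rose by 2.18 and Setd6 by 1.86. Prdm14, a regulator of naive pluripotency, was at 9.15 in iPSC and at 5.27, not above background, on day 0. Mecom was at 5.26 in iPSC, not above background, and at 9.66 on day 0. Of the 9 measured partners of LSD1, 1 was called higher and 1 lower, where all genes had 10.1% and 9.79%, and the median was -0.03. Rcor2 rose by 2.02 and Rcor3 fell by 1.21. Of 9 arginine methyltransferases, 3 were called higher and 1 lower, where all genes again had 10.1% and 9.79%. Prmt7 (1.52) and Prmt5 (1.10) rose and Prmt2 (-1.19) fell, and Prmt8 was at 6.23 in iPSC and at 3.71, under background, on day 0.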

How the data were processed

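Total RNA was hybridised to Affymetrix arrays. The deposited values are log2 expression values that the authors made with RMA, per the submitters' processing notes, which corrects background, quantile normalizes the arrays and summarises probes. Quantile normalization hides a change shared by most genes. For the RMA version, the chip definition and the build, the sources used here give nothing. Of 29643 probe sets, 27260 matched 1 symbol by unversioned accession in a RefSeq table of GRCm38.p6 and 2383 matched none, giving 20233 genes. The probe set with the highest mean stood for a gene, and 8 members had over 1 distinct probe set.

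A mean for each of the 9 groups was fitted to all 18 arrays with limma 3.58.1 (R 4.3.3), with 9 residual degrees of freedom, a prior of 4.25 and Benjamini-Hochberg adjustment over all genes. The code was tested on simulated data. Precision is limited by the number of arrays, with a median SE of 0.0976 for a log2 difference. The members and lists were chosen with earlier results of these data known. Values on every array are given for up to 5 called members per direction in the main comparisons, for transient members and for a fixed set of 14 genes. Other fold limits, normalizations, models and the omission of arrays were tried as alternatives. The arrays were not treated as paired by replicate number.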

Additional observations from a re-analysis of the deposited data

How the results depend on the processing

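Of 42 calls of a member in a comparison, 34 held under every alternative run at the 2-fold limit, 8 were lost under at least 1 and 0 changed direction. With no minimum fold, the members called against day 0 were 19 (day 1), 21 (day 3), 21 (day 5), 22 (day 7), 26 (day 11), 26 (day 15), 24 (day 18) and 27 (iPSC); with a 1.5-fold limit they were 9, 9, 9, 8, 7, 11, 13 and 16. With no minimum fold the other comparisons gave 25 (day 15 against day 1), 21 (day 18 against day 15), 22 (iPSC against day 15), 15 (iPSC against day 18), 14 (day 3 against day 1), 2 (day 5 against day 3), 2 (day 7 against day 5), 11 (day 11 against day 7) and 5 (day 15 against day 11), and 18 transient members. With the 1.5-fold limit they gave 7, 6, 8 and 3 for the first 4 of these, 2 for day 11 against day 7, 1 for day 15 against day 11 and 6 transient members. With no minimum fold, 50% to 59.9% of all genes were called against day 0, 12% to 46.7% in the other comparisons and 50% as transient. With the 1.5-fold limit the shares were 28.1% to 35.3%, 3.49% to 22.6% and 24%. Another quantile normalization and median centring each left 2 members called on day 15 against day 0, in place of 4, without Suv39h1 and Smyd5. Each gave 1 for day 18 against day 15, in place of 0 (Kmt2c at 1.01 under quantile normalization, Suv39h1 at -1.01 under centring), and quantile normalization gave 1 for day 11 against day 7 (Kdm5b at 1.03). Ash1l in iPSC against day 0 was also called under both, at -1.03 under quantile normalization and -1.04 under centring. Leaving out single arrays moved the counts against day 0 over 4-5 (day 3), 4-5 (day 5), 3-4 (day 7), 2-3 (day 11), 3-4 (day 15), 3-6 (day 18) and 6-7 (iPSC). It moved iPSC against day 15 over 2-3, and both day 18 against day 15 and day 11 against day 7 over 0-1. The members differing over the 9 groups numbered 30-32, and the remaining counts did not move. With the replicate number as a block 6 members were called in iPSC against day 0, as without it, and it changed no other count. Deviations of same-numbered arrays correlated over genes at -0.189 to 0.149 over 36 pairs of groups (median 0.015, 6 over 0.1). No consistent pairing by number was seen, and these correlations cannot exclude one. Jmjd6 on day 1 lay at 1.00 and was not called under quantile normalization.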
